A study of Mus musculus with 24 samples.

Results

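The AP-1 transcription factor family was followed as 8 genes, Fos, Fosb, Fosl1, Fosl2, Jun, Junb, Jund and Atf3, chosen by gene symbol. Each had 1 row in each of 2 count tables, out of 18474 rows in the table of blood and liver libraries and 22505 rows in the table of antibody libraries, and all 8 passed the filter on low counts in both. Neutrophils were prepared from NOD.c3c4 mice, in which bile ducts are damaged by autoimmunity. Treated mice had received 10 doses into a vein of PDC166-coated nanoparticles, peptide-MHC particles by the series' account. The blood and liver table held neutrophils from treated liver (n = 2), untreated liver (n = 2), treated blood (n = 2) and untreated blood (n = 3). The antibody table held liver neutrophils only, all from mice given the nanoparticles and in addition a blocking antibody labelled anti-GCF (n = 3), anti-IL35 (n = 2), anti-TGFb (n = 2), anti-IL10 (n = 2) or anti-IL21R (n = 3), or an isotype control antibody (n = 3). The labels do not say what GCF stands for, give no age or sex, and do not say whether replicates were separate or pooled animals, so the p-values rest on a spread between samples that may be technical.

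AP-1 is a dimer of basic leucine zipper proteins. Fos proteins cannot pair with each other and bind DNA only with a partner, usually a Jun protein, whereas Jun proteins can also pair among themselves, and Atf3 joins Jun proteins or itself. Fos, Fosb, Jun, Junb and Atf3 are immediate-early genes, transcribed within minutes of a stimulus through MAP kinase signalling, and their RNA is short-lived. Fosl1 and Fosl2, the genes of Fra-1 and Fra-2, usually follow later and for longer, and Jund is expressed more steadily. In neutrophils AP-1 takes part in the transcription of cytokine genes after activation and adhesion.

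Blood and liver libraries held 34.7 to 46.4 M (mega) counts each and antibody libraries 23.6 to 47.5 M. Member counts per library ran from 16, for Fosl1 in untreated liver, to 376751, for Fos. Levels are CPM, counts relative to library size after TMM scaling, and the 2 tables were scaled separately. Several groups stood apart in the RNA of other cells. Hepatocyte markers summed to 71.8 and 83.1 CPM in treated liver, against 14705 and 20615 CPM in untreated liver. Neutrophil markers were 11 of 12 higher in treated than in untreated liver, with sums of 208991 and 210233 CPM in treated liver against 32363 and 35288 CPM in untreated liver. In anti-GCF libraries neutrophil markers summed to 21314 to 32096 CPM, against 169963 to 210844 CPM with isotype, and Kupffer cell and macrophage markers to 6302 to 11261 CPM, against 285 to 752 CPM with isotype. The macrophage markers summed to 381 CPM in anti-IL35 replicate 1 and 2724 CPM in replicate 2. T and NK cell markers summed to 644 and 664 CPM with anti-TGFb and to 515 and 569 CPM with anti-IL10, against 66.2 to 137 CPM with isotype. In bulk samples, fewer cells of a type and less RNA per cell cannot be told apart. Library numbers of treated and untreated samples fall into separate ranges, and so do those of each group of the antibody table. A batch along these lines cannot be told apart from treatment or antibody.

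RefSeq promoter windows were found for 7 of the 8 members (all but Fosl1), each running from 250 bases before to 50 bases after a RefSeq start. This start need not be the end of the GENCODE gene given below. The Jund window, chr8:70697489-70697788, lies wholly before the GENCODE gene, which begins at 70698949. The Atf3 window lies inside the GENCODE gene, whose 5′ end is at 191218039. So does the Fosl2 window, chr5:32136222-32136521, in a gene that begins at 32135801. A set of 4 is shown: Fos, Jun and Atf3, the 3 windows that hold a match to a motif of cyclic AMP response factors or of Jun dimers, and Fosl2 as an example of the 4 that hold neither (Fosb, Fosl2, Junb and Jund). Members with and without such a match rose in treated liver, Fosb, Fosl2 and Junb among those without. Coordinates are on GRCm38.p6, the build called mm10. Fos lies on the plus strand, Jun and Atf3 on the minus strand and Fosl2 on the plus strand, and each sequence reads 5′ to 3′ along the gene.
Fos promoter, chr12:85473640-85473939: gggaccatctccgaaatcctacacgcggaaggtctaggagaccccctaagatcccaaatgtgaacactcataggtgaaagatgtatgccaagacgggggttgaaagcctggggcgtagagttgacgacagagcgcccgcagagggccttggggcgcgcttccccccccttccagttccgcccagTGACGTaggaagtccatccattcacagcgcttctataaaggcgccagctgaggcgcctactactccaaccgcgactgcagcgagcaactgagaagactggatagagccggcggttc
Jun promoter, chr4:95052173-95052472: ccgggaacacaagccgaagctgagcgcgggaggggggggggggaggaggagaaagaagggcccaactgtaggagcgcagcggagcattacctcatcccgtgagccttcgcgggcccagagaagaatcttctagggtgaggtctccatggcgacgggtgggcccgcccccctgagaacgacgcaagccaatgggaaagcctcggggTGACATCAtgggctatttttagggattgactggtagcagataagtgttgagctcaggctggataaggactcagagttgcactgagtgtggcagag
Atf3 promoter, chr1:191183284-191183583: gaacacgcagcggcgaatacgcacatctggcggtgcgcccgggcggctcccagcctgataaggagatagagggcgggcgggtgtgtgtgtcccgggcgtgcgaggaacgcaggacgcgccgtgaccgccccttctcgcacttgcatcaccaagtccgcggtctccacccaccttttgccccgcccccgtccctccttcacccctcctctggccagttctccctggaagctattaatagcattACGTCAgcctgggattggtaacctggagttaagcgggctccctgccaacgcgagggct
Fosl2 promoter, chr5:32136222-32136521: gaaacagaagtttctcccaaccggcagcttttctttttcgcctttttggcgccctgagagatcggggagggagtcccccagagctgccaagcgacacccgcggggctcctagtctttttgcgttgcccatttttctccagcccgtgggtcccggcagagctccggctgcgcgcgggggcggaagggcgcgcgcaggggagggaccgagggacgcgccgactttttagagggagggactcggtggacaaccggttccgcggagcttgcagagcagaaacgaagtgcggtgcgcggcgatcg
Capitals mark the matches. TGACGT, the core of the cyclic AMP response element, stands at −66 to −61 from the Fos start. Its other strand, ACGTCA, stands at −8 to −3 from the RefSeq start used for Atf3. TGACATCA, the element of Jun promoters, stands at −45 to −38 of Jun. A TATAAA box, left in lower case, stands at −33 to −28 of Fos. Of 32841 promoter windows of the same length, 7.51% hold TGACGT on either strand, 3.62% hold TGACATCA and 13.6% hold TATAAA. None of the 7 windows holds the AP-1 site TGANTCA (7.81% of windows), the full element TGACGTCA, which contains TGACGT (1.79%), or a serum response element (1.63%). A missing match says only that these letters are not in the window.

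In GENCODE M21 on mm10 the Fos genes lie at chr12:85473890-85477273 (Fos), chr7:19302696-19310051 (Fosb), chr19:5447547-5455946 (Fosl1) and chr5:32135801-32157842 (Fosl2). The Jun genes lie at chr4:95049034-95052222 (Jun), chr8:84974484-84978718 (Junb) and chr8:70698949-70700616 (Jund), and Atf3 lies at chr1:191170296-191218039. Junb overlaps the peroxiredoxin gene Prdx2 on the opposite strand, Fosl1 overlaps Ccdc85b, and Jun and Jund overlap the antisense genes Junos and Gm11175. The libraries were stranded, but the strand setting used for counting is not given in the sources used here, so reads of these partners may not have been told apart.

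The first comparison asked what the nanoparticles change in the AP-1 genes of liver neutrophils. Treated liver held more RNA of 7 of the 8 members than untreated liver, and the eighth, Jund, did not pass. The summed level of the family was 6463 and 7843 CPM in treated liver, against 2454 and 1689 CPM in untreated liver. The rise was not even across members: Fosl1 and Jun had the largest fold changes and Junb the smallest of those that passed. A change was called at an adjusted p below 0.05 (edgeR quasi-likelihood test, Benjamini-Hochberg adjustment over all 16719 genes tested), by which 64.1% of all genes were called in either direction here and 27.8% as higher. The treated and untreated libraries did not overlap for any of the 8 members, nor for 86.3% of all genes.

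Fos, the main partner of Jun proteins in AP-1, stood at 3485 and 4192 CPM in treated liver, against 1213 and 656 CPM in untreated liver (log2 fold change 2.04 ± 0.32, SE, adjusted p = 0.000397). Fosb, whose protein closely resembles Fos, stood at 329.7 and 453 CPM in treated and 71.8 and 40.8 CPM in untreated liver (2.80 ± 0.52, adjusted p = 0.00111). For both genes every treated library lay above every untreated one. Fosl1 lacks the transactivation domain of Fos, and its RNA stood at 24.9 and 20.5 CPM in treated liver, against 0.367 and 1.15 CPM in untreated liver. Its log2 fold change of 4.90 ± 0.98 (adjusted p = 0.00176) was the largest of the family, from a level near 1 CPM. Fosl2, the other Fra gene, stood at 472 and 530.4 CPM in treated liver and 132 and 138 CPM in untreated liver (1.89 ± 0.23, adjusted p = 9.98e-05).

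Jun, the strongest transactivator of the Jun proteins, stood at 459 and 726 CPM in treated liver, against 46.7 and 55 CPM in untreated liver. Its log2 fold change of 3.54 ± 0.25 had the smallest adjusted p of the family (4.51e-06). Junb, a weaker activator that can hold Jun in check, stood at 1290.3 and 1496 CPM in treated and 681 and 538 CPM in untreated liver (1.19 ± 0.19, adjusted p = 0.000491). Jund, which restrains proliferation in several cell types, stood at 320.0 and 349 CPM in treated liver, against 281 and 242 CPM in untreated liver. The Jund groups did not overlap, but its log2 fold change of 0.35 ± 0.16 did not pass (adjusted p = 0.0836), and it passed in 6 of the alternatives, with values of 0.47 to 0.65. Atf3, a stress-induced factor that represses many inflammatory genes, stood at 81.5 and 76.7 CPM in treated liver, against 29 and 17.9 CPM in untreated liver (1.76 ± 0.56, adjusted p = 0.0198). The Atf3 call ended with library totals as the scaling and when treated replicate 1, treated replicate 2 or untreated replicate 2 was left out (adjusted p 0.0569 to 0.1). The neutrophil markers rose in the same comparison by a median of 2.69 and the hepatocyte markers fell by a median of 7.25 on the log2 scale, and their part in the AP-1 result was not tested.

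**Figure D1:**
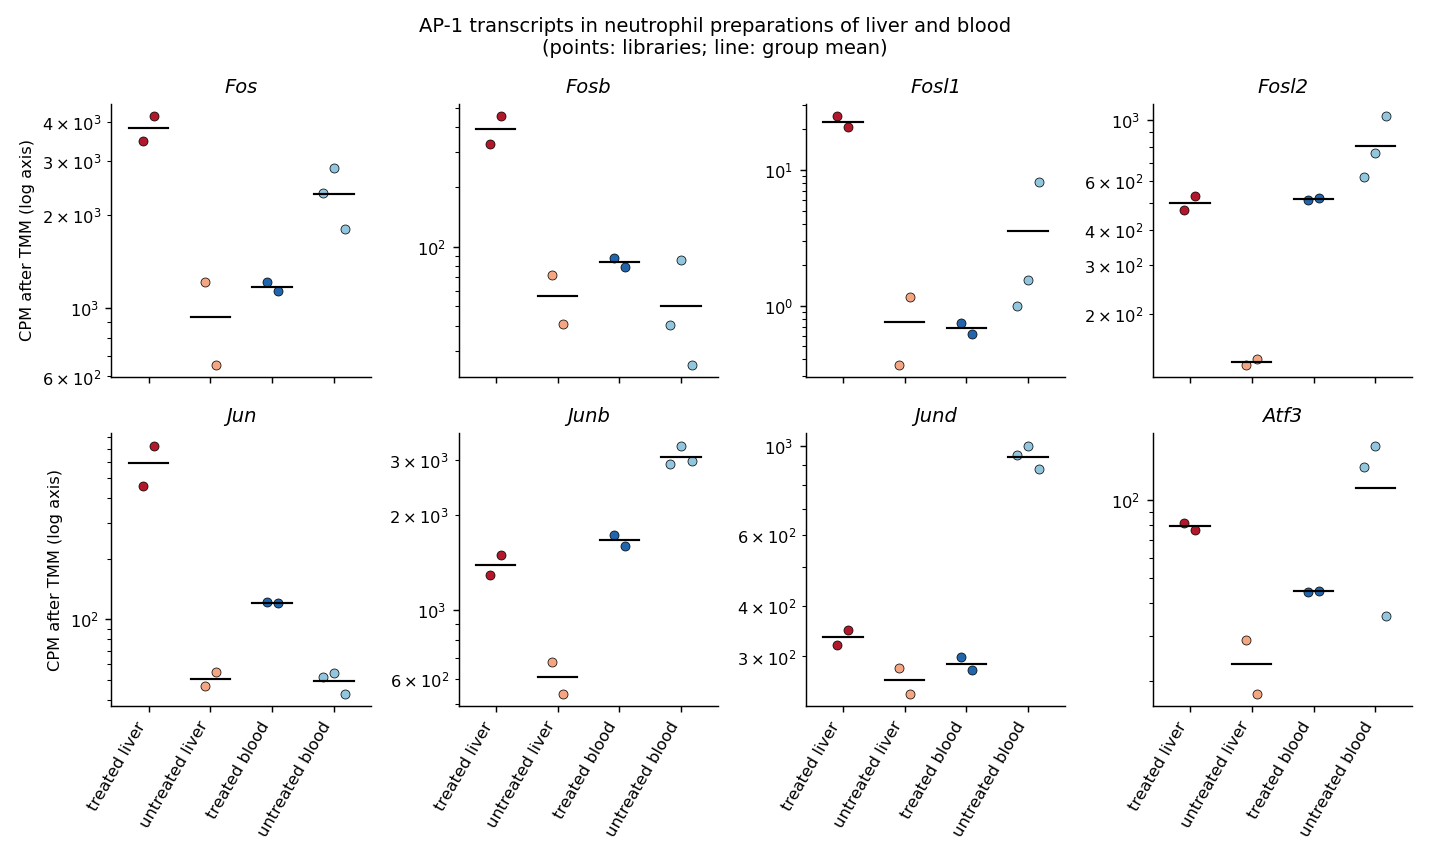
CPM after TMM (log axis) of the 8 AP-1 genes in each library of treated liver, untreated liver, treated blood and untreated blood, with points for libraries and lines for group means. Jun is highest in treated liver (459 and 726 CPM), whereas Jund is highest in untreated blood (949, 1004 and 875 CPM).

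The same comparison in blood asked whether circulating neutrophils change in the same way. They did not share the pattern of the liver: in treated blood only Jun rose, and Fos, Fosl2, Junb and Jund fell. In all 5 of 8 members passed, where 33.6% of all genes were called, 17.4% as higher and 16.2% as lower. The family summed to 4018 and 3772 CPM in treated blood, against 7079.7, 8243 and 6802 CPM in untreated blood.

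Jun stood at 122 and 119.9 CPM in treated blood and 51.7, 54.4 and 42.6 CPM in untreated blood (1.29 ± 0.21, adjusted p = 0.00214). Jund stood at 299 and 277 CPM in treated blood, against 949, 1004 and 875 CPM in untreated blood, and its log2 fold change was −1.71 ± 0.16 (adjusted p = 0.000374). The groups did not overlap for either gene, and both calls were kept under every alternative run. Fos stood at 1213 and 1134 CPM in treated blood, against 2367, 2839 and 1809 CPM in untreated blood (−0.99 ± 0.29, adjusted p = 0.0267). Junb stood at 1736 and 1596 CPM in treated and 2915, 3338 and 2976 CPM in untreated blood (−0.88 ± 0.18, adjusted p = 0.00593). Fosl2 stood at 515 and 522 CPM in treated and 622, 759.9 and 1029.8 CPM in untreated blood (−0.63 ± 0.21, adjusted p = 0.0449). The Fosl2 call ended in 10 of the alternatives run, among them RLE scaling, library totals, no filter and the fit without untreated liver, with adjusted p of 0.0504 to 0.562. The Fos call ended with library totals (−0.54, adjusted p = 0.247), with a block by library-name number and without untreated replicate 2 or either treated replicate.

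Fosb, Fosl1 and Atf3, which did not pass in blood, varied widely among the untreated libraries. Fosb stood at 87.7 and 79.1 CPM in treated blood and 40.2, 85.5 and 25.5 CPM in untreated blood (adjusted p = 0.228). Fosl1 stood at 0.743 and 0.615 CPM in treated blood and 0.991, 1.55 and 8.13 CPM in untreated blood (adjusted p = 0.0668). Atf3 stood at 44.4 and 44.7 CPM in treated blood and 134, 162 and 35.8 CPM in untreated blood (adjusted p = 0.076). Untreated replicate 3 was the library with the highest Fosl1 and the lowest Atf3, and its neutrophil markers summed to 277524 CPM, against 112923 and 138555 CPM in untreated replicates 1 and 2. Fosl1 passed as lower in 5 alternatives, DESeq2, both replicate blocks and without untreated replicate 1 or 2 (adjusted p 0.00753 to 0.0483). Fosb passed as higher without untreated replicate 2 (0.018), and Atf3 passed as lower with DESeq2 (0.0218) and without untreated replicate 3 (−1.74, adjusted p = 0.000373). With library totals, or without treated replicate 2 or 3, 2 members were called in blood (Jun and Jund). Neutrophil markers summed to 86715 and 89664 CPM in treated blood, against 112923, 138555 and 277524 CPM in untreated blood, and 2 of 12 were called lower. In treated blood 5 of 11 T and NK cell markers, 7 of 8 erythroid markers and 6 of 6 platelet markers rose beside these changes. Of the Kupffer cell and macrophage markers 7 of 11 rose, although their sum was 755 to 789 CPM in treated and 674 to 1077 CPM in untreated blood. The part of these markers was not tested.

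The treatment effect itself differed between liver and blood for every member. The interaction, the log2 change in liver minus that in blood, was positive and passed for 8 of 8 members, where 54.7% of all genes passed and 23.3% passed as positive. It was largest for Fosl1 (7.25 ± 1.31), Atf3 (3.07 ± 0.76) and Fos (3.03 ± 0.43, adjusted p = 0.000392). Fosl2 followed at 2.53 ± 0.32 and Jun at 2.26 ± 0.32, although Jun rose in both tissues. Junb (2.08 ± 0.26), Fosb (2.07 ± 0.67) and Jund (2.07 ± 0.23, adjusted p = 0.000102) differed by about the same amount. The Fosl1 value includes a blood change that did not pass (−2.36, adjusted p = 0.0668, edgeR). Fosl1 stood at 8.13 CPM in untreated blood replicate 3 and at 0.991 and 1.55 CPM in replicates 1 and 2. The Fosb interaction no longer passed with library totals (1.33, adjusted p = 0.169) or without treated blood replicate 2 (2.16) or 3 (2.00), treated liver replicate 2 (1.83) or untreated liver replicate 2 (1.86). Library totals moved the median of all genes from −0.30 to −1.06 in the interaction. Neutrophil markers passed as positive for 11 of 12 in the same interaction, and their part was not tested.

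**Figure D2:**
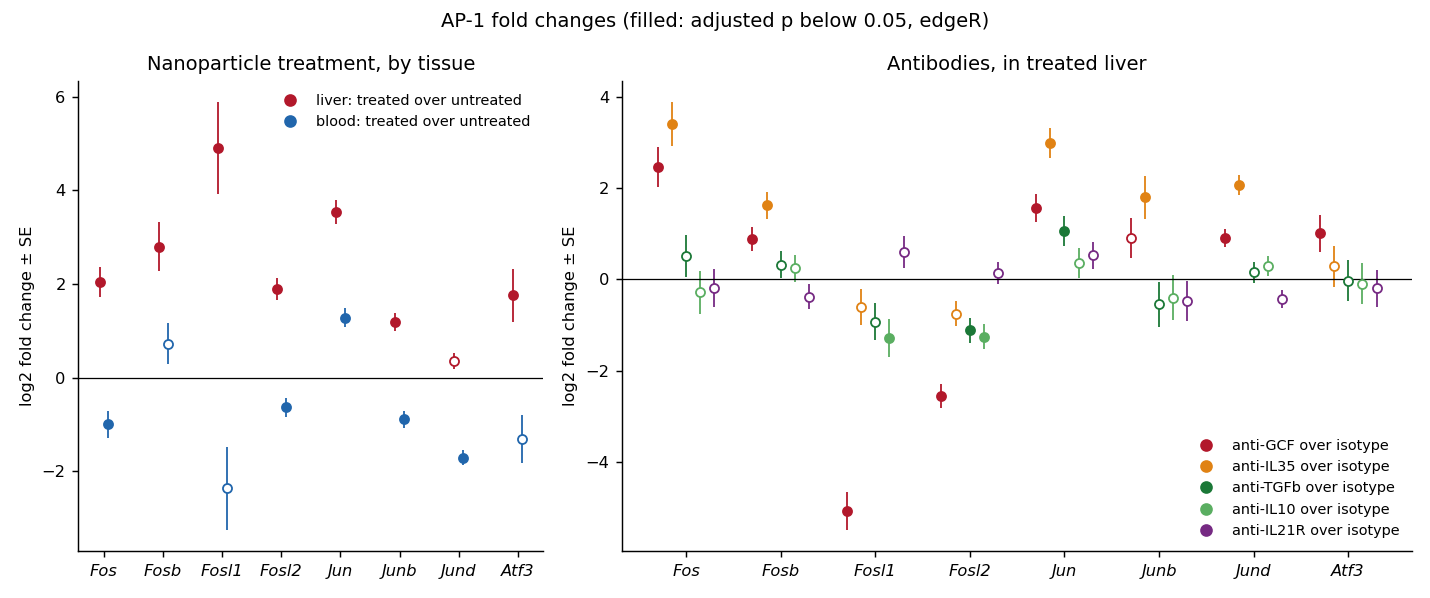
Log2 fold changes with SE of the 8 AP-1 genes for the nanoparticle treatment in liver and in blood (left) and for each antibody over isotype in treated liver (right), with filled points where the adjusted p was below 0.05. In liver 7 members rose, in blood 1 rose and 4 fell, and under anti-GCF Fosl1 (−5.06) and Fosl2 (−2.55) lie opposite to Fos (2.47).

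Within treated mice, liver was set against blood, which leaves the untreated libraries out of the contrast. Treated liver held more Fos, Fosb, Fosl1 and Jun RNA than treated blood, while Fosl2, Junb, Jund and Atf3 did not pass. That is 4 of 8 members called, where 21.3% of all genes were called, 9.71% as higher. The log2 differences were 1.71 ± 0.31 for Fos (adjusted p = 0.00504), 2.23 ± 0.50 for Fosb (0.013), 5.06 ± 0.99 for Fosl1 (0.00668) and 2.29 ± 0.24 for Jun (0.000284). Fosl2 overlapped between these groups, at 501 ± 41.2 CPM in treated liver and 518 ± 4.99 CPM in treated blood (SD, n = 2 each, adjusted p = 0.908). Without treated blood replicate 2 the calls were Fos and Jun, and without replicate 3 only Jun was called. Without treated liver replicate 2 the Fosb call ended (adjusted p = 0.0818). Platelet markers summed to 4.28 and 4.7 CPM in treated liver, against 1598 and 1623 CPM in treated blood, and 10 of 11 T and NK cell markers were lower in liver, and their part was not tested.

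Untreated liver held less Fos, Fosl2, Junb, Jund and Atf3 RNA than untreated blood, 5 of 8 members, where 64.3% of all genes were called and 28.7% were lower. The log2 differences ran from −2.58 for Fosl2 to −1.32 for Fos, and the Fos call ended with library totals (−0.79, adjusted p = 0.0738). Fosl1 did not pass (−2.19 ± 0.87, adjusted p = 0.0506) though it passed as lower in 6 alternatives (adjusted p 0.00583 to 0.0458). Jun did not pass, at 50.9 ± 5.89 CPM in untreated liver (SD, n = 2) and 49.6 ± 6.19 CPM in untreated blood (n = 3, adjusted p = 0.889), and its sign turned with the scaling. Neutrophil markers were lower in untreated liver for 10 of 12 genes and hepatocyte markers higher for 12 of 12, and their part in these 5 differences was not tested.

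The order of the 4 groups was therefore not the same for each member. Treated liver was highest for Fos, Fosb, Fosl1 and Jun, and untreated blood was highest for Fosl2, Junb, Jund and Atf3. Untreated liver was lowest for Fos, Fosl2, Junb, Jund and Atf3. Neighbours whose libraries overlapped were treated blood and untreated liver for Fos and Jund, untreated liver and untreated blood for Fosb and Jun, treated blood and treated liver for Fosl2, and untreated blood and treated liver for Atf3. For Fosl1, untreated liver overlapped both untreated blood and treated blood, and the blood groups did not overlap each other.

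Compared per kilobase of exon, so that genes of different length can be set side by side, Fos and Junb made up most of the family. Fos took 58.6% ± 0.0142 of the summed CPM per kilobase in treated liver and 44.7% ± 7.3 in untreated liver (SD, n = 2 each), 32.8% ± 0.0989 in treated blood (n = 2) and 32.3% ± 3.64 in untreated blood (n = 3). Junb took 21.8% ± 0.56 in treated liver, 30.9% ± 3.23 in untreated liver, 47.6% ± 0.422 in treated blood and 43.9% ± 2.96 in untreated blood. Junb was thus the larger share in blood and Fos in liver. The Jun share was 6.59% ± 1.26 in treated liver and 1.93% ± 0.73 in untreated liver, and 2.49% ± 0.0984 in treated and 0.509% ± 0.0287 in untreated blood. Ratios of counts within a library do not depend on the scaling, but they can depend on the cells in the library. Jun over Jund was 1.44 and 2.08 in treated liver, 0.166 and 0.228 in untreated liver, 0.407 and 0.433 in treated blood and 0.0545, 0.0542 and 0.0487 in untreated blood. No library of one group overlapped another in this ratio. Fos over Jun ran the other way, at 7.59 and 5.78 in treated liver and 45.8, 52.2 and 42.5 in untreated blood. The ratios were not tested.

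**Figure D3:**
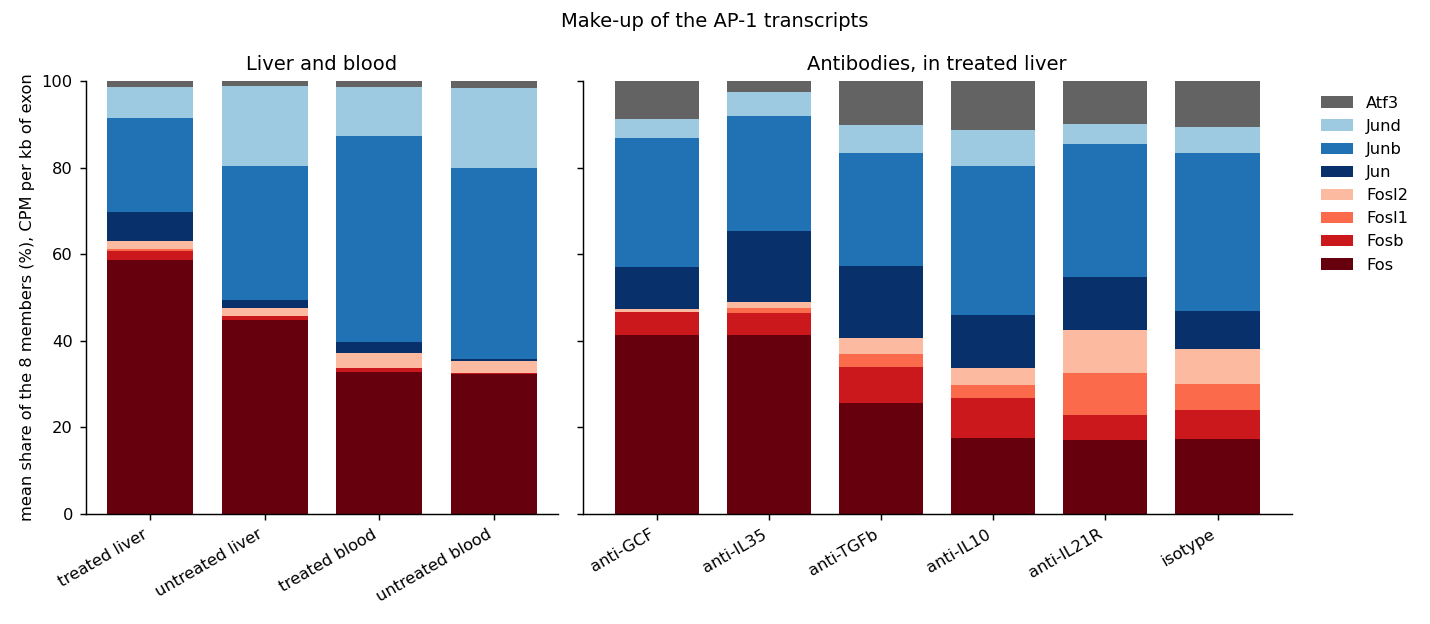
Mean share of each member in the summed CPM per kilobase of exon of the 8 AP-1 genes, for liver and blood groups (left) and for antibody groups in treated liver (right), as stacked bars to 100 percent. Fos makes up 58.6% in treated liver and 32.3% in untreated blood, and 41.4% with anti-GCF and 17.2% with isotype.

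The antibody libraries address what blocking each target does to the liver neutrophils of treated mice. Over the 6 groups of the antibody table, 7 of 8 members differed between groups (edgeR quasi-likelihood test over all groups), where 76.4% of all genes did, and Atf3 did not pass (adjusted p = 0.0947). The antibodies fell into different patterns. Anti-GCF and anti-IL35 came with high Fos, Fosb, Jun and Jund. Anti-GCF, and to a smaller extent anti-TGFb and anti-IL10, came with low Fosl2, and anti-IL21R left no member past the threshold. The 5 comparisons share the isotype libraries.

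With anti-GCF, Fos, Fosb, Jun, Jund and Atf3 rose and Fosl1 and Fosl2 fell, so that 7 of 8 members passed, where 57.8% of all genes were called, 31.6% as higher and 26.3% as lower. The anti-GCF and isotype libraries did not overlap for any of the 8, nor for 66.8% of all genes. Fosl1 stood at 7.96, 12.5 and 7.13 CPM with anti-GCF, against 237, 363 and 320.4 CPM with isotype. Its log2 fold change of −5.06 ± 0.42 (adjusted p = 2.19e-06) was the largest of any member under any antibody. Fosl2 stood at 275, 394 and 358 CPM with anti-GCF, against 1652, 2320.2 and 2051 CPM with isotype (−2.55 ± 0.25, adjusted p = 4.83e-06). For both Fra genes the highest anti-GCF library lay far below the lowest isotype library.

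Fos stood at 7559.8, 5155 and 5883 CPM with anti-GCF, against 547, 1071 and 1745 CPM with isotype (2.47 ± 0.44, adjusted p = 0.000368). Jun stood at 2422, 1798 and 1755 CPM with anti-GCF, against 793, 617 and 614 CPM with isotype (1.56 ± 0.30, adjusted p = 0.00064). Every anti-GCF library lay above every isotype library for both genes. Fosb, at 2038, 2041 and 2081 CPM with anti-GCF and 845, 1212 and 1272 CPM with isotype, rose by 0.89 ± 0.27 (adjusted p = 0.0116, or 0.0519 without isotype replicate 1). Jund, at 523, 433 and 434 CPM with anti-GCF and 257, 257 and 228 CPM with isotype, rose by 0.90 ± 0.20 (adjusted p = 0.00168). Atf3, at 1034, 1211 and 1329 CPM with anti-GCF and 421, 661 and 696 CPM with isotype, passed narrowly (1.01 ± 0.41, adjusted p = 0.0488). Leaving out any 1 of the 6 libraries ended the Atf3 call, with values of 0.81 to 1.14 and adjusted p of 0.0628 to 0.155. It also ended with RLE or upper-quartile scaling, limma-voom, no filter and the 5 CPM filter (adjusted p 0.0548 to 0.0761). Junb, at 4696, 3799 and 4456 CPM with anti-GCF and 1097, 3035 and 2818 CPM with isotype, did not pass (0.90 ± 0.43, adjusted p = 0.0925) other than with library totals (1.43, adjusted p = 0.0111). Beside these changes 10 of 12 neutrophil markers fell (median −3.00) and 11 of 11 Kupffer cell and macrophage markers rose (median 4.23), as did 7 of 9 monocyte and dendritic cell markers. Among the macrophage markers, Clec4f, a lectin of Kupffer cells, stood at 1002 ± 436 CPM with anti-GCF and 19.7 ± 15.6 CPM with isotype (SD, n = 3 each). Their part in the AP-1 changes was not tested.

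**Figure D4:**
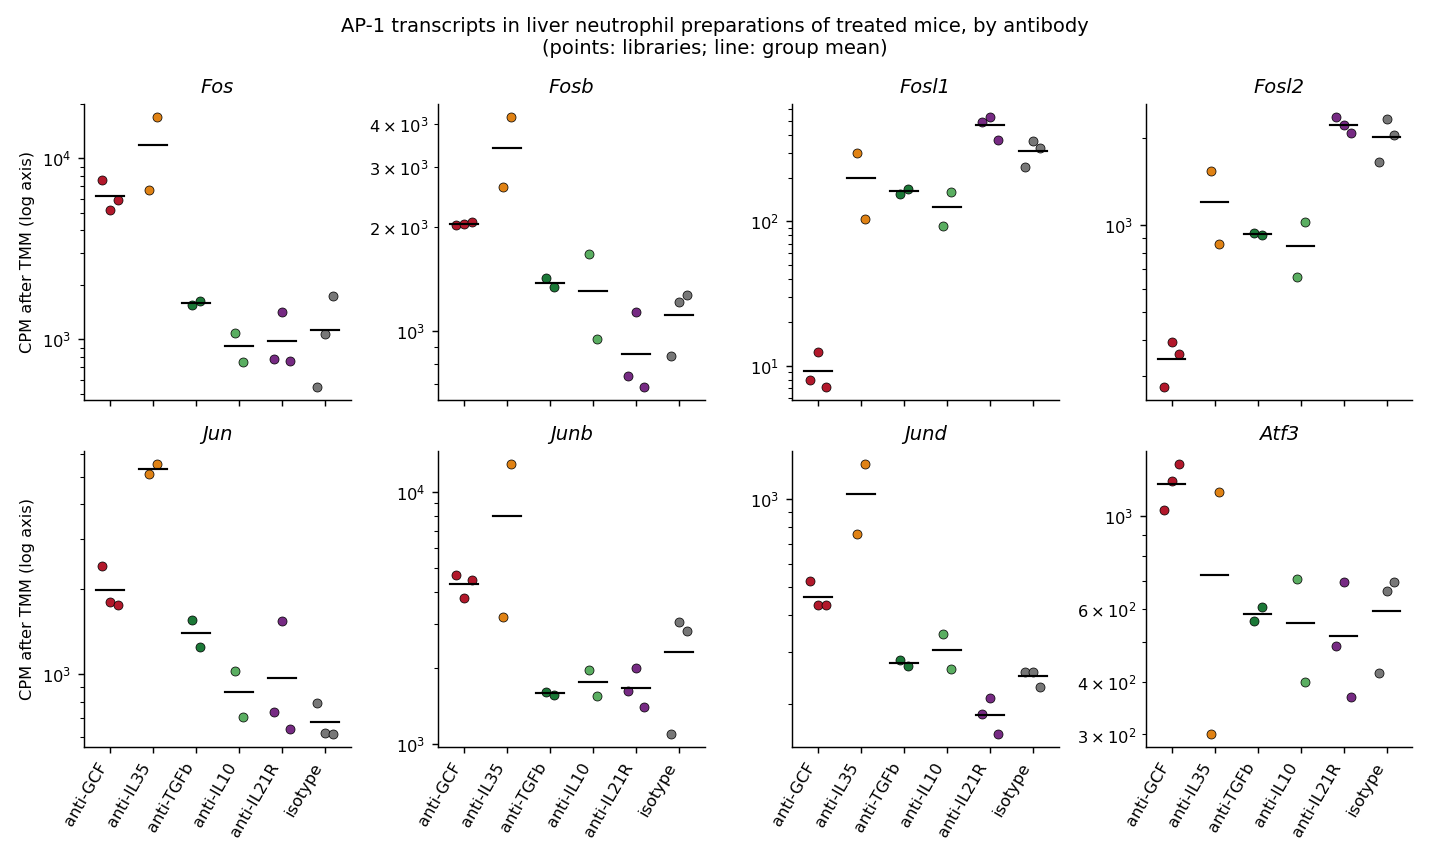
CPM after TMM (log axis) of the 8 AP-1 genes in each liver neutrophil library of the antibody table, with points for libraries and lines for group means. Fosl1 lies between 7.13 and 12.5 CPM with anti-GCF and at 92.8 CPM or more in every other library, and Jun is highest with anti-IL35 (5122 and 5542 CPM).

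With anti-IL35, Fos, Fosb, Jun, Junb and Jund rose, so that 5 of 8 passed and none was called lower, where 9.33% of all genes were called in either direction and 4.81% as higher. Jun stood at 5122 and 5542 CPM with anti-IL35, against 793, 617 and 614 CPM with isotype (2.98 ± 0.34, adjusted p = 0.000617). Jund stood at 756 and 1310.3 CPM with anti-IL35, against 257, 257 and 228 CPM with isotype (2.06 ± 0.22, adjusted p = 0.000611). Fos stood at 6674 and 16896 CPM with anti-IL35, against 547, 1071 and 1745 CPM with isotype (3.39 ± 0.48, adjusted p = 0.00234). Both anti-IL35 libraries lay above all isotype libraries for these genes and for Fosb (2623 and 4183 CPM with anti-IL35, 845, 1212 and 1272 CPM with isotype, 1.62 ± 0.29, adjusted p = 0.00721).

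Junb differed most between the anti-IL35 libraries, at 3204 and 12854 CPM in replicates 1 and 2, against 1097, 3035 and 2818 CPM with isotype (1.79 ± 0.48, adjusted p = 0.0348). The Junb call ended with library totals, limma-voom, either replicate block, without isotype replicate 1 or 3, without the anti-GCF libraries and in a fit of the compared groups alone (adjusted p 0.0541 to 0.323). Atf3 (301 and 1142 CPM) and Fosl1 (299 and 103 CPM) also lay far apart in these libraries and did not pass. Fosl2, at 1532 and 858 CPM with anti-IL35, lay below every isotype library (1652, 2320.2 and 2051 CPM) without passing (−0.75 ± 0.27, adjusted p = 0.101). It passed as lower in 3 alternatives, library totals (−0.92, adjusted p = 0.0328), DESeq2 (0.0386) and without anti-IL35 replicate 1 (0.0132), and Fosl1 passed as lower in the last of these (−1.57, adjusted p = 0.0125). Without anti-IL35 replicate 2, Fos (2.57 ± 0.47), Jun (2.92 ± 0.38) and Jund (1.61 ± 0.20) still passed and Fosb (1.24, adjusted p = 0.0862) and Junb (0.47, adjusted p = 0.591) did not. Kupffer cell and macrophage markers summed to 381 CPM in anti-IL35 replicate 1 and 2724 CPM in replicate 2, against 285 to 752 CPM with isotype, and their part was not tested. In an edgeR fit of these groups alone 0 of 8 members passed and 0% of all genes were called, although Fos (3.33) and Jun (2.90) had like values there. In the fit of all 6 groups DESeq2 called 6 members and limma-voom 4.

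Fosl2 was lower with anti-TGFb and with anti-IL10. Fosl2 stood at 932 and 919.8 CPM with anti-TGFb, against 1652, 2320.2 and 2051 CPM with isotype (−1.12 ± 0.28, adjusted p = 0.0103), and at 661 and 1021 CPM with anti-IL10 (−1.25 ± 0.28, adjusted p = 0.0109). Jun rose with anti-TGFb, at 1553 and 1247 CPM against 793, 617 and 614 CPM with isotype (1.05 ± 0.33, adjusted p = 0.0296). Fosl1 fell with anti-IL10, at 92.8 and 159 CPM against 237, 363 and 320.4 CPM with isotype (−1.28 ± 0.41, adjusted p = 0.0464). Fosl1 with anti-TGFb, at 154 and 169 CPM, lay below every isotype library without passing (−0.93 ± 0.40, adjusted p = 0.102). The Fosl1 call with anti-IL10 ended with library totals, without a filter, with a block by title number, in a fit of the compared groups alone and without the anti-GCF libraries (adjusted p 0.0506 to 0.0994). The Fosl2 call with anti-IL10 ended in a fit of the compared groups alone (0.0556), the Jun call with anti-TGFb with a block by title number (0.0694), and the Fosl2 call with anti-TGFb ended with library totals (0.0549). These were 2 of 8 members for each antibody, where 27.6% of all genes were called with anti-TGFb (17.5% higher and 10% lower) and 17.6% with anti-IL10 (6.98% lower). A count of 2 in 8 is near the shares called in either direction, 27.6% and 17.6%. With anti-IL10 both called members were lower, where 6.98% of all genes were lower. Without anti-TGFb replicate 1 or 2 no member passed, without anti-IL10 replicate 1 none passed, and without isotype replicate 2 or 3 1 member passed in each comparison (edgeR). Beside them 11 of 11 T and NK cell markers rose with anti-TGFb and 10 of 11 with anti-IL10. Neutrophil markers summed to 101099 and 107005 CPM with anti-TGFb and 50813 and 119213 CPM with anti-IL10, below every isotype library, and the part of these markers was not tested.

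With anti-IL21R, which blocks a cytokine receptor, 0 of 8 members passed in edgeR, DESeq2 or limma-voom. By adjusted p, 2.23% of all genes were called (edgeR). Of the members 1, Jund, had an unadjusted p under 0.05 (edgeR), and the share of all genes under that level is not given here. Jund stood at 184, 208 and 157 CPM with anti-IL21R and 257, 257 and 228 CPM with isotype (−0.43 ± 0.20, adjusted p = 0.212). Fosl1 stood at 490.2, 528 and 368 CPM with anti-IL21R, above every isotype library (0.59 ± 0.35, adjusted p = 0.331). Jund and Fosl1 did not overlap the isotype libraries, as was so for 25.5% of all genes. The other 6 members did, with log2 fold changes of −0.47 (Junb) to 0.53 (Jun).

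Anti-GCF and anti-IL35 were also set against each other within the same fit. Neutrophil markers summed to 21314 to 32096 CPM with anti-GCF, against 258049 and 149609 CPM with anti-IL35. Kupffer cell and macrophage markers summed to 6302 to 11261 CPM with anti-GCF, against 381 and 2724 CPM with anti-IL35. The part of these markers was not tested. Fosl1 (−4.45 ± 0.42), Fosl2 (−1.80 ± 0.26), Jun (−1.42 ± 0.33) and Jund (−1.16 ± 0.22) were lower with anti-GCF than with anti-IL35, 4 of 8 members, where 48.1% of all genes were called and 23.1% were lower. Fos did not pass, at 6199 ± 1233 CPM with anti-GCF (SD, n = 3) and 11785 ± 7228 CPM with anti-IL35 (n = 2), a log2 difference of −0.93 ± 0.46 (adjusted p = 0.112). Fosb did not pass (−0.73 ± 0.29, adjusted p = 0.0543) and passed as lower in 5 alternatives. Without anti-IL35 replicate 1 all but Atf3 were called, 7 of 8, and with library totals the Jun and Jund calls ended (adjusted p 0.0956 and 0.116).

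Ranked by mean, anti-IL35 was highest for Fos, Fosb, Jun, Junb and Jund, anti-GCF for Atf3 and anti-IL21R for Fosl1 and Fosl2. Anti-GCF was lowest for Fosl1 and Fosl2, and the step up to the next group, anti-IL10, passed for both (adjusted p = 0.000117 and 0.00245). For Jun the step from anti-IL35 to anti-GCF passed (0.00311) and for Jund so did that step (0.000884) and the next, from anti-GCF to anti-IL10 (0.0473). For Fos the step from anti-GCF to anti-TGFb passed (0.00941). Of all genes 39.1% were called between anti-GCF and anti-IL10 and 35.4% between anti-GCF and anti-TGFb. No other step between neighbours passed.

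The balance of Fos against the Fra genes was taken as a ratio within each library, where scaling has no part. Fos over Fosl2 was 27.5, 13.1 and 16.5 with anti-GCF, 4.36 and 19.7 with anti-IL35, 1.65 and 1.78 with anti-TGFb, 1.65 and 0.73 with anti-IL10, 0.33, 0.637 and 0.368 with anti-IL21R and 0.331, 0.461 and 0.851 with isotype. Every anti-GCF and anti-IL35 library lay above all others, and the anti-IL21R libraries overlapped those with isotype. Anti-IL35 replicate 2 (19.7) lay within the anti-GCF range, and anti-IL10 replicate 2 (0.73) within the isotype range. Fos over Fosl1 was 949.5, 414 and 825 with anti-GCF and 22.3 and 164 with anti-IL35, against 2.31, 2.95 and 5.45 with isotype. Per kilobase, the Fos share of the family was 41.4% ± 3.06 with anti-GCF (SD, n = 3), 41.4% ± 2.49 with anti-IL35 (n = 2) and 17.2% ± 5.27 with isotype (n = 3). The Fosl2 share was 0.572% ± 0.166 with anti-GCF, 1.37% ± 1.19 with anti-IL35 and 8.13% ± 1.63 with isotype. A ratio or share within a library can still depend on the cells in it. Kupffer cell and macrophage markers summed to 6302 to 11261 CPM with anti-GCF and to 285 to 752 CPM with isotype. With anti-IL35 they summed to 381 CPM in replicate 1 and 2724 CPM in replicate 2. The part of these markers was not tested, and neither were the ratios and shares.

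**Figure D5:**
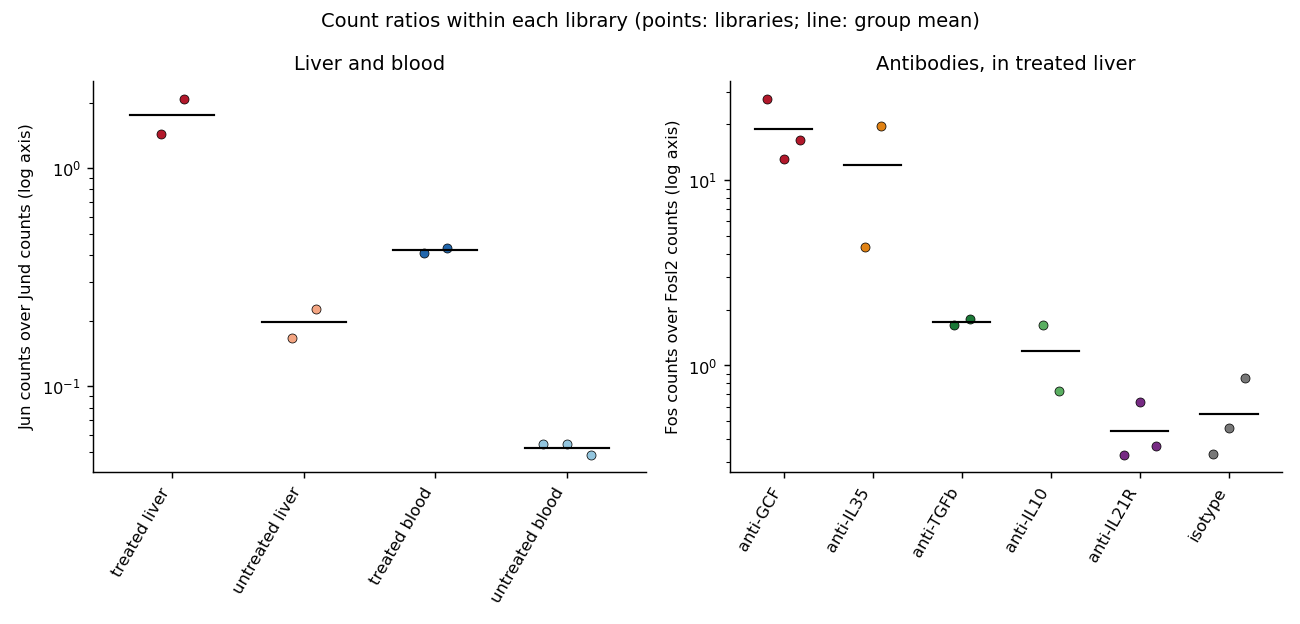
Count ratios within each library on log axes, Jun over Jund in liver and blood (left) and Fos over Fosl2 in the antibody groups (right), with points for libraries and lines for group means. Jun over Jund lies between 1.44 and 2.08 in treated liver and between 0.0487 and 0.0545 in untreated blood, and Fos over Fosl2 between 13.1 and 27.5 with anti-GCF and between 0.331 and 0.851 with isotype.

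Isotype-treated and nanoparticle-treated liver both come from mice given the particles. They lie in tables of raw and of expected counts, scaled separately, so their levels are set side by side without a test. Fosl1 averaged 307 ± 64.3 CPM with isotype (SD, n = 3) and 22.7 ± 3.1 CPM in treated liver (n = 2). Fosl2 averaged 2007 ± 336 CPM with isotype and 501 ± 41.2 CPM in treated liver, whereas Fos averaged 1121 ± 601 CPM with isotype and 3838 ± 500.0 CPM in treated liver. Higher means with isotype were also seen for Fosb (1110 ± 231 against 391 ± 87.3 CPM) and Atf3 (593 ± 149 against 79.1 ± 3.39 CPM). The same held for Junb (2317 ± 1062 against 1393 ± 146 CPM) and Jun (675 ± 102 against 593 ± 188 CPM). Jund was lower with isotype (247 ± 16.4 against 334 ± 20.4 CPM).

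Genes that act with AP-1 were taken from lists, whose counts stand against the shares of all genes called. Of 13 other bZIP factors that pair with AP-1 proteins, 6 rose and 3 fell in treated against untreated liver, where 27.8% of all genes were higher and 36.3% lower (median log2 fold change 0.03, with −0.29 over all genes). Jdp2, a repressor that pairs with Jun proteins, rose by 2.16 ± 0.20 in liver and fell in blood (−1.02 ± 0.18). Mafk, a small Maf protein, rose in treated liver (1.57 ± 0.18) and fell with anti-GCF (−2.26 ± 0.18), anti-TGFb (−1.10 ± 0.20), anti-IL35 (−1.37 ± 0.20) and anti-IL10 (−1.22 ± 0.20). Jdp2 also fell with anti-GCF (−2.04 ± 0.21) and anti-TGFb (−1.09 ± 0.23). Of these bZIP factors 6 rose and 6 fell with anti-GCF, where 31.6% of all genes rose and 26.3% fell (median −0.14, with 0.11 over all genes).

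Upstream of AP-1, 8 of 17 MAP kinase genes rose and 6 fell in treated liver (median 0.74), where 27.8% of all genes rose and 36.3% fell. In treated blood 1 rose and 8 fell, where 17.4% of all genes rose and 16.2% fell (median −0.43, with 0.04 over all genes). Rps6ka1, a kinase activated by ERK, rose in treated liver (1.72 ± 0.19), and Map2k2, a kinase that activates ERK, fell in treated blood (−1.29 ± 0.16). Of 9 factors that bind Fos and Jun promoters, 4 rose and 1 fell in treated liver (median 0.67). Creb1, which binds cyclic AMP response elements, rose there (1.58 ± 0.17), and Srf, which binds serum response elements, fell in treated blood (−0.78 ± 0.14). Among the same 9, 1 rose and 4 fell with anti-GCF (median −0.11), where 31.6% of all genes rose and 26.3% fell. Of 9 MAP kinase phosphatase genes, Dusp1, the immediate-early phosphatase of JNK and p38, was at 4629 ± 380 CPM with anti-GCF (SD, n = 3) and 8844 ± 5168 CPM with anti-IL35 (n = 2), against 1152 ± 491 CPM with isotype (n = 3), and rose in both (2.01 ± 0.36 and 2.94 ± 0.40). It was 1 of 3 that rose with anti-GCF, where 4 fell, and the only 1 that rose with anti-IL35, where 3 fell (of all genes 4.81% rose and 4.51% fell). In treated liver 0 of the 9 phosphatase genes rose and 2 fell, where 27.8% of all genes rose and 36.3% fell. Their median there was −0.54, with −0.29 over all genes.

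Of 20 immediate-early genes outside AP-1, 14 rose and 2 fell in treated liver, where 27.8% of all genes rose and 36.3% fell (median 1.43), among them Ier2 (1.68 ± 0.16), Btg2 (1.90 ± 0.21) and Klf2 (1.84 ± 0.22). In treated blood 2 rose and 8 fell, against 17.4% and 16.2% of all genes (median −0.37), among them Csrnp1 (−2.45 ± 0.21), Klf2 (−1.70 ± 0.20) and Btg2 (−1.63 ± 0.20). With anti-GCF 8 rose and 5 fell, a count near the 31.6% and 26.3% of all genes (median 0.45), Klf4 being higher (1.95 ± 0.26) and Nr4a3, an orphan nuclear receptor gene, lower (−3.07 ± 0.45). With anti-IL35 8 rose and 3 fell, against 4.81% and 4.51% of all genes (median 0.08), with Rhob (2.73 ± 0.27), Klf2 (1.74 ± 0.26) and Btg2 (1.74 ± 0.27) higher. Of genes described as AP-1 targets in various cells, 9 of 18 rose and 4 fell in treated liver, against 27.8% and 36.3% of all genes (median 1.57), with Tnf, the inflammatory cytokine gene, and Vegfa, the vascular growth factor gene, higher (3.76 ± 0.29 and 2.21 ± 0.23) and Ccnd1, cyclin D, lower (−8.45 ± 0.69). With anti-GCF 6 of 19 rose and 4 fell (median 1.14), a count near the 31.6% and 26.3% of all genes. Plaur, the urokinase receptor gene, fell with anti-GCF (−2.98 ± 0.23), anti-TGFb (−1.05 ± 0.25) and anti-IL10 (−1.09 ± 0.25). Of the 19, 1 rose and 1 fell with anti-TGFb, where 17.5% of all genes rose and 10% fell. With anti-IL10, 1 rose and 3 fell, where 17.6% of all genes were called and 6.98% were lower. With anti-IL21R none of these lists had a member past the threshold in edgeR.

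Heat shock genes are induced by cell stress, to which AP-1 genes also respond. Of 12, 3 rose and 6 fell in treated liver, against 27.8% and 36.3% of all genes (median −0.37), the chaperonin gene Hspd1 being among those that fell (−4.96 ± 0.22), and the list summed to 929 and 957 CPM in treated liver, against 1561 and 1762 CPM in untreated liver. With anti-GCF 5 rose and 3 fell, a count near the 31.6% and 26.3% of all genes. With anti-IL35, where 4.51% of all genes fell, 1 of the 12 heat shock genes, Hsp90aa1, fell (−0.78 ± 0.15). Their part in the AP-1 changes was not tested.

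Genes with the most similar pattern were found by the smaller of 2 Pearson correlations of log2 CPM, over the 9 and over the 15 libraries, among 12299 genes. Zfp36, which encodes an RNA-binding protein that destabilises cytokine mRNA, was nearest to Fos (0.96). Jun and Fosb were nearest to each other (0.88), and Dusp2, a MAP kinase phosphatase, was nearest to Atf3 (0.91). Abhd5 was nearest to Fosl1 (0.97), Stx11 to Fosl2 (0.98), Lipe to Junb (0.97) and Pygo2 to Jund (0.92). The libraries share groups and cell make-up, so these values describe the pattern only.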

How the data were processed

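Libraries were TruSeq Stranded mRNA, from RNA extracted with RNeasy Mini columns, per the labels' protocols. Tools listed in the submitters' processing notes are STAR 2.5.3a, Bowtie2 2.2.5, DESeq2 and Partek, and the build is mm10, with no step given for any. The counting tool, its strand setting and its annotation are not given in the sources used here. The authors deposited raw counts per gene for the 15 antibody libraries and expected counts for the 9 blood and liver libraries, where 44.4% of values are not whole, and these estimated counts were rounded. All columns had a sample, and no pair of libraries held the same values.

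Each table was fitted whole with edgeR 4.0.16 in R 4.3.3 (filterByExpr by group, TMM, robust quasi-likelihood F test, group as the only term), leaving 16719 and 16812 genes. Adjusted p-values are Benjamini-Hochberg over all genes tested, with 0.05 as the threshold, and standard errors are the size of the log2 fold change over √F. The script was tested on simulated data. Exon lengths and overlaps came from GENCODE M21 and promoters from RefSeq (GRCm38.p6). The members, gene lists and tests were chosen with earlier results of these data known. All 8 members are named, and of each list at most 3 called genes with the smallest adjusted p of a comparison, of which the text gives a selection. Genes most like a member are the 3 with the highest smaller correlation, of which the nearest is given. Alternatives were RLE, upper-quartile and total-count scaling, DESeq2 1.42.0, limma-voom (limma 3.58.1), no filter, a minimum of 5 CPM in 2 libraries, a block for replicate number, fits of only the groups compared, and leaving out each library. Fits without untreated liver or anti-GCF libraries were added after seeing the data.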

Additional observations from a re-analysis of the deposited data

Results flagged for a closer look

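The effect of the nanoparticles differed between liver and blood for each of the 8 AP-1 genes in a direct test of the difference (edgeR interaction, adjusted over all genes tested). The log2 change in liver minus that in blood was 3.03 ± 0.43 for Fos (adjusted p = 0.000392), 2.07 ± 0.67 for Fosb (0.0251), 7.25 ± 1.31 for Fosl1 (0.00143) and 2.53 ± 0.32 for Fosl2 (0.000208). It was 2.26 ± 0.32 for Jun (0.000372), 2.08 ± 0.26 for Junb (0.000218), 2.07 ± 0.23 for Jund (0.000102) and 3.07 ± 0.76 for Atf3 (0.00728). Fos, Fosl2 and Junb rose in liver and fell in blood, Jun rose in both, and Jund fell in blood without passing in liver. Fosb, Fosl1 and Atf3 rose in liver and did not pass in blood. Outside treated liver, Fosl1 lay low in this table, from 0.367 CPM in untreated liver to 8.13 CPM in untreated blood. The Fosb interaction no longer passed in 5 of the alternatives run, library totals among them. Of all genes tested, 54.7% passed the same test and 23.3% passed as positive. Neutrophil markers passed as positive for 11 of 12, and their part was not tested.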

How the results depend on the processing

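Over all alternatives, 1237 member values kept their direction and side of the threshold, 80 lost a call, 38 gained one and 37 changed sign, none of these a called value. Counts of called members moved by over 1.5 times in a few settings. Library totals gave 2 in blood and 1 with anti-TGFb, no filter and the fit without anti-GCF libraries gave 1 with anti-IL10, and fits of only the groups compared gave 0 with anti-IL10 and 0 with anti-IL35 (edgeR). Leaving out 1 library gave 6 to 8 called members in liver, 2 to 6 in blood, 1 to 4 for treated liver against treated blood, 5 to 6 for untreated liver against untreated blood, 7 to 8 in the interaction, 5 to 6 with anti-GCF, 0 to 0 with anti-IL21R, 0 to 2 with anti-TGFb, 3 to 7 with anti-IL35, 0 to 2 with anti-IL10 and 7 to 8 over the 6 antibody groups, and 4 to 7 for anti-GCF against anti-IL35. Without treated blood replicate 2 or 3 it was 2 in blood, and 2 and 1 for treated liver against treated blood, and without anti-IL35 replicate 2 it was 3. A library left out of a group of 2 leaves 1, assumed to vary like the other groups. The share of all genes called in each of these fits is not set beside these counts. The counts therefore do not tell a change in the members from a change in all genes called. Causes were not tested.

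Replicate numbers were not taken to pair samples, because not every pair of same-numbered samples had deviations from the group means that correlated over 0.1. In a group of 2 the deviations are exact opposites, so pairs between such groups repeat an r of the same size. The counts of pairs include such repeats and are a weak guide to pairing. Among blood and liver libraries 0 of 10 pairs did by either numbering. Among antibody libraries 10 of 33 did by title and 7 of 30 by library-name number (r from −0.30 to 0.29), among them isotype replicates 1 and 2 with the same numbers of anti-GCF, anti-TGFb and anti-IL35 by title (0.20 to 0.29). A replicate block by title number gave 1 called member with anti-TGFb, 1 with anti-IL10, 6 in blood and 4 with anti-IL35, and the other counts were those without it. A block by library-name number gave 4 with anti-IL35 and otherwise the counts without it.

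Library totals moved the median of all genes from −0.29 to −0.59 in liver, from 0.04 to 0.51 in blood and from 0.11 to 0.61 with anti-GCF. Signs changed among small, uncalled differences. In treated liver against treated blood, Fosl2 became 0.030 (RLE), 0.030 (DESeq2), 0.19 (title block) and −0.13 to 0.037 leaving out libraries, and Jund −0.024 (totals). In untreated liver against untreated blood, Fosb became −0.059 (upper quartile) and −0.44 to 0.77 leaving out libraries. Jun there became −0.013 (RLE), −0.013 (DESeq2), −0.19 (upper quartile), −0.097 (5 CPM filter), −0.0075 (title block), −0.014 (groups alone) and −0.22 to 0.11 leaving out libraries. With anti-TGFb, Atf3 became 0.46 (totals), 0.013 (voom), 0.024 (5 CPM filter), 0.0088 (title block), 0.030 (groups alone), 0.031 (without anti-GCF libraries) and −0.22 to 0.11 leaving out libraries. With anti-IL10, totals gave 0.21 for Fos, 0.097 for Junb and 0.41 for Atf3, and Atf3 was 0.0014 (title block) and 0.10 (library-name block). Leaving out libraries there gave −0.62 to 0.18 for Fos, −0.23 to 0.62 for Fosb and −0.57 to 0.28 for Atf3. It gave −0.54 to 0.28 for Fos with anti-IL21R, −0.98 to 0.95 for Atf3 with anti-IL35 and −1.57 to 0.43 for Junb in anti-GCF against anti-IL35.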
